A study of Nematostella vectensis with 16 samples.

Results

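A set of 110 genes of the starlet sea anemone, Nematostella vectensis, had at least 2 times the control transcript level in animals exposed to mercury and in animals exposed to copper. The 110 genes were taken from 27273 gene models, 0.403% of them, by a rule on measured levels. A level, in CPM, is the raw count of a gene per 1000000 counts of its library. The rule asked for a control mean of at least 1 CPM, a mercury mean and a copper mean of at least 2 times the control mean, a mercury mean at or above the copper mean, and every mercury and copper library above every control. It also asked that at least 1 cadmium or zinc library was not above all controls. The genes were thus chosen by their measured levels in mercury, copper and control pools. Values of these contrasts, fitted calls included, are given as a description and not as a test of the set. The same holds for cadmium and zinc against control, which the rule also used. Of the contrasts examined, the difference between cadmium and zinc is the one the rule did not use, and it was tested.

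The study exposed pools of 5 whole anemones, 2 to 4 months old, to 100 µg/L of 1 metal chloride for 24 h: HgCl2, CuCl2, CdCl2 or ZnCl2, with 3 pools per metal. The controls were 4 untreated pools, whose number of animals is not stated separately. All animals were raised in the dark at 18 °C in artificial seawater of 12.5 ppt, and no strain, genotype or sex is given in the labels. Since each library holds whole animals, more RNA per cell and more cells of a type that holds a transcript cannot be told apart.

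Copper is an essential trace metal that serves as a cofactor of redox enzymes and is toxic in excess, and mercury has no known nutritional role. Ions of both metals bind thiol groups of proteins and of glutathione. Animal cells are known to answer such stress with chaperones, antioxidant enzymes, metal-binding proteins and exporters. Zinc is likewise essential, and cadmium is a toxic metal that is known in many animals to induce metal-binding proteins. The deposited identifiers were looked up in a RefSeq table of 38762 genes of this species and 0 matched. The genes are therefore given by identifier, none is described by function, and the lists of chaperone, glutathione, proteasome, metal-transport and transcription-factor genes could not be used.

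Library totals ran from 5494659 to 8113825 counts, so that 1 CPM stood for 5.49 to 8.11 counts. A set of 126 genes, none of them among the 110, varied together between pools of one group. Its summed level was 1268 to 2215 CPM in 6 libraries (control 1, control 2, Hg 3, Cu 3, Cd 1, Zn 3). The remaining 10 libraries had 224 to 523 CPM. All 110 genes passed the filter on low counts and entered the fit over 16276 genes. CPM is a share of counts and is not divided by transcript length, so a higher CPM of one gene than of another does not show more transcripts.

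Of all counts the 110 genes together made up 0.27% ± 0.021 (SD, n = 4) in controls, 2.08% ± 0.035 (SD, n = 3) in Hg pools and 0.999% ± 0.12 (SD, n = 3) in Cu pools. The control libraries held 2409, 2749, 2892 and 2755 CPM in sum. The Hg libraries held 20820, 20467 and 21172 CPM, and the Cu libraries held 8736, 11185 and 10048 CPM. Every Cu sum was above every control sum and every Hg sum above every Cu sum, an order that the rule largely fixes. In Cd pools the sums were 2558, 3010 and 2856 CPM, and in Zn pools 2571, 2471 and 2631 CPM. These overlapped the control sums. Against the control mean the summed level was 7.71 times in Hg, 3.7 times in Cu, 1.04 times in Cd and 0.947 times in Zn.

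The set of 126 varying genes was high in 1 pool of each metal. Hg 3, where it was high, held 21172 CPM of the 110 genes, and Hg 1 and Hg 2 held 20820 and 20467 CPM. Cu 3, where it was again high, lay between the other Cu pools. A single gene, v1g239529, made up 10.3% of the sum in controls, 29.8% in Hg and 33.3% in Cu. Without it the remaining 109 genes summed to 6.04 times the control mean in Hg and 2.75 times in Cu.

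**Figure D1:**
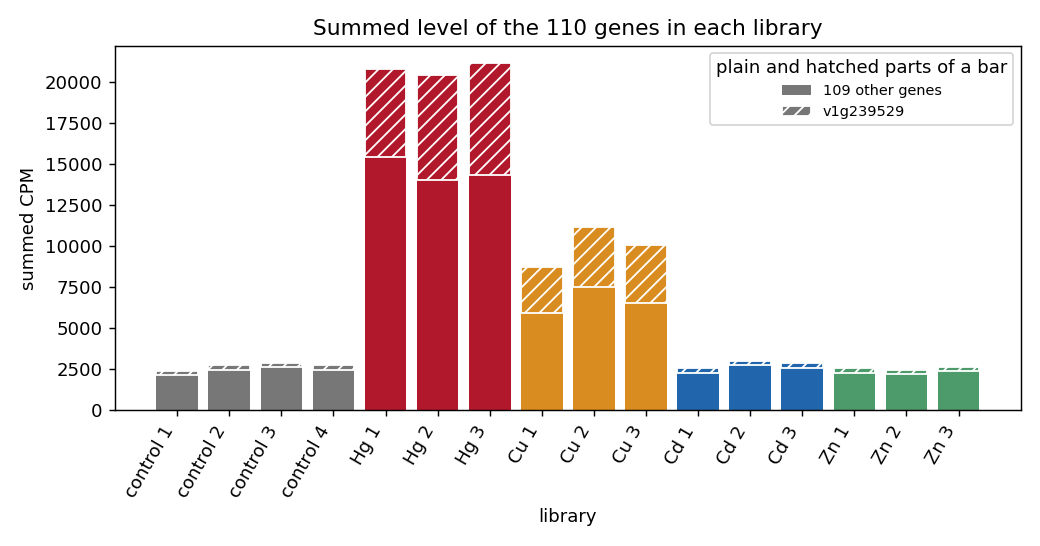
Summed level of the 110 genes in each of the 16 libraries, in CPM, with the share of v1g239529 hatched. The 3 Hg bars reach 20467 to 21172 CPM and the 3 Cu bars 8736 to 11185 CPM, while Cd and Zn bars stand at the height of the controls.

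The 110 genes ran from low to high levels. Their control means went from 1.06 to 284 CPM, with a median of 10.1 CPM. The ratio of the Hg mean to the control mean had a median of 5.29, with quartiles of 3.95 and 7.93 and a highest value of 97.8. It was at least 3 for 101 genes, at least 5 for 62 and at least 10 for 21. The ratio of the Cu mean to the control mean had a median of 2.42, with quartiles of 2.17 and 3.28 and a highest value of 26.8. It was at least 3 for 33 genes and at least 4 for 18. Over the 16424 genes with a control mean of at least 1 CPM and counts in both Hg and Cu, the median ratios to control were 0.963 in Hg and 0.979 in Cu. A ratio under 3 was thus seen for 77 of the 110 genes in Cu and for 9 in Hg.

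**Figure D2:**
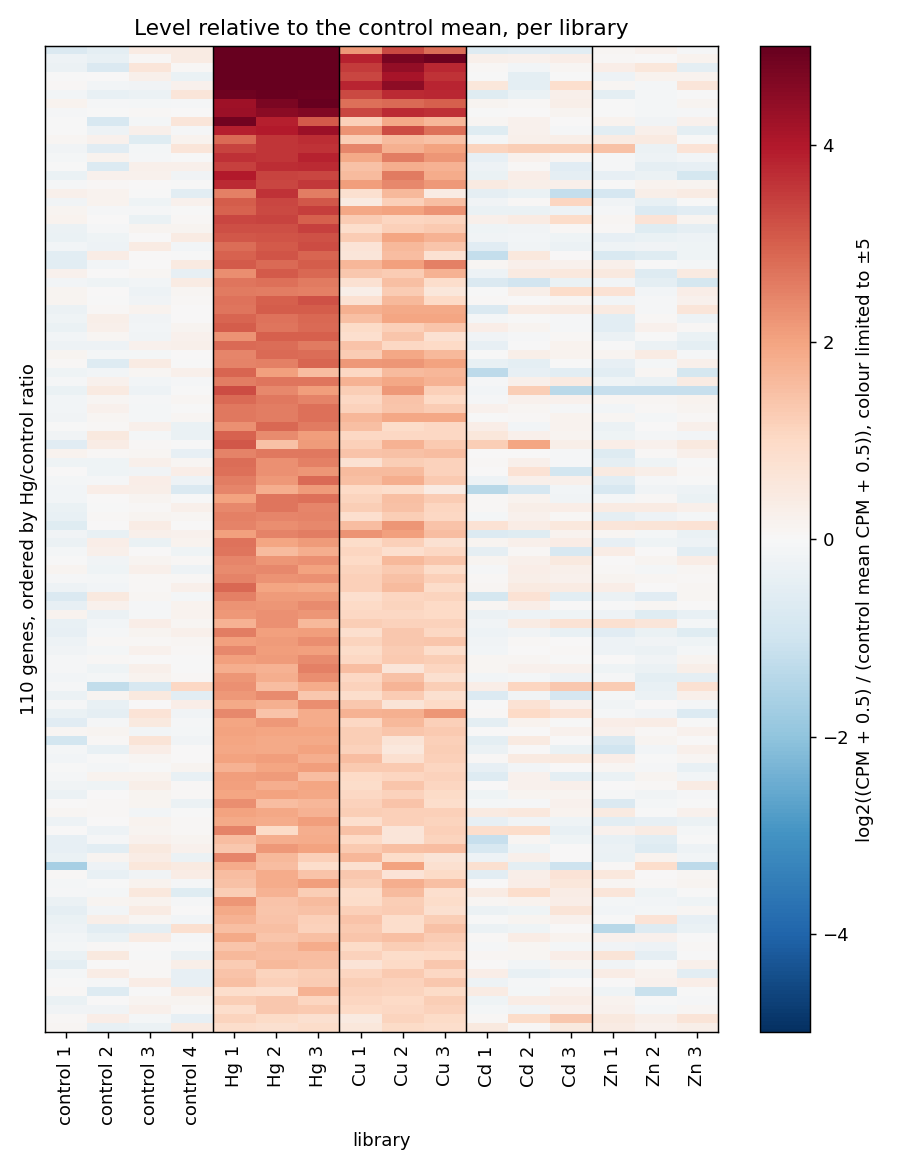
Level of each of the 110 genes (rows) in each of the 16 libraries (columns), as log2 of CPM plus 0.5 relative to the control mean plus 0.5, with rows ordered by the Hg/control ratio. Hg columns are darker than Cu columns in most rows, and Cd and Zn columns stay near the control colour in most rows.

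Calls were made at a Benjamini-Hochberg adjusted p under 0.05 in edgeR's quasi-likelihood test over all tested genes. Against control, 109 of the 110 genes were called higher in Hg, where 15% of all tested genes were called higher and 11.7% lower. For Cu 97 of the 110 were called higher, where 3% of all tested genes were called higher and 1.2% lower. By the rule every Hg and every Cu library of the 110 genes lay above every control. Over all tested genes 16.9% had that order in Hg and 7.1% in Cu, and 13.1% and 5.77% had the opposite order. Both counts follow from the rule and are given as a description. The median log2 fold change of the 110 genes was 2.40 in Hg and 1.27 in Cu, against -0.05 and -0.02 over all tested genes. In the authors' deposited table for Hg, 107 of the 110 had an adjusted p under 0.05, as had 2201 of all 22737 genes with a value. In the authors' deposited table for Cu 93 of the 110 did, and 321 of all 22759 genes. The gene not called in Hg was v1g200601, a gene of low counts, with control levels of 0, 0.826, 1.79 and 1.63 CPM. Its Hg levels were 5.1, 4.09 and 2.34 CPM, and the lowest of these lay close above the highest control. Not called in Cu were v1g111293, v1g152988, v1g160028, v1g200601, v1g206044, v1g212854, v1g216715, v1g218298, v1g221057, v1g237112, v1g238642, v1g241139 and v1g99940. Not all of these had low counts, as v1g238642, v1g216715 and v1g212854 had control means of 49.6, 15.9 and 13.9 CPM.

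In Cu the ratio to control was at least 3 for 33 of the 110 genes, at least 4 for 18 and at least 7 for 9. Between the ratio of 4.9 (v1g80243) and the ratio of 7.45 (v1g234533) no gene of the 110 lay. Other criteria of the rule bear on this gap. v1g2806, with a Cu ratio of 6.48, missed only the criterion that Hg is at or above Cu. v1g244653, with a Cu ratio of 5.115, missed only the criterion on Cd and Zn. The 9 genes from 7.45 upwards, singled out after their values were seen, were v1g161288, v1g214900, v1g180397, v1g244281, v1g161291, v1g239529, v1g246755, v1g42493 and v1g234533. Their Hg ratios ran from 19 to 97.8, with a median of 63.6, and 1 of the other 101 genes, v1g160645, was in that range. The 9 genes had a median Hg/Cu ratio of 3.6, and the other 101 genes a median of 2.01. Their median control mean was 4.68 CPM, against 10.6 CPM for the other 101.

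**Figure D3:**
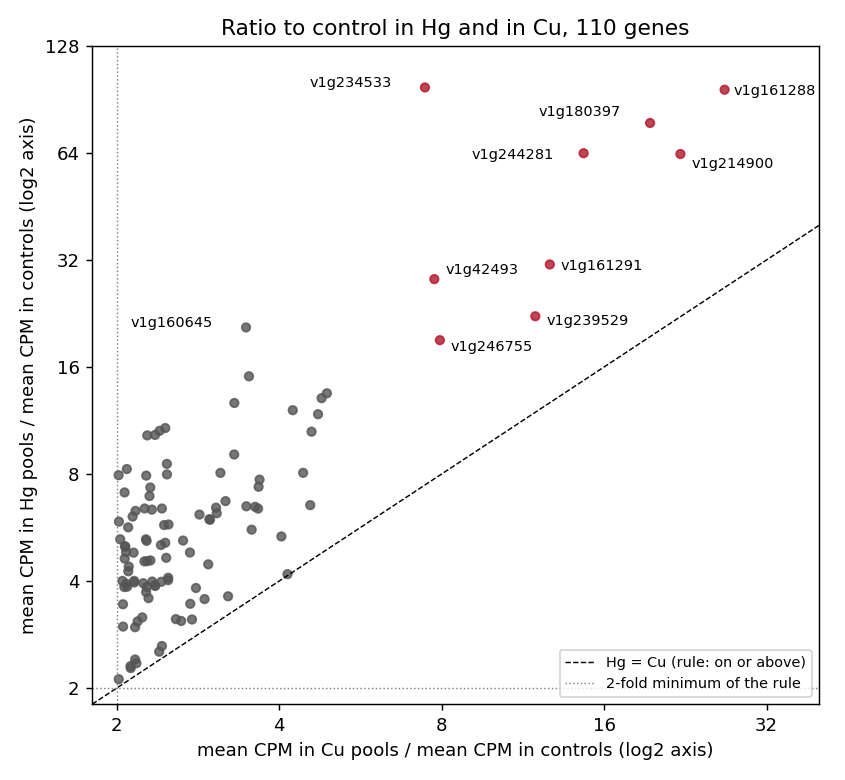
Ratio of the mean CPM in Hg pools to that in controls against the same ratio for Cu pools, both on log2 axes, with 1 point per gene. Red points are the 9 genes with a Cu ratio of 7.45 to 26.8, the dashed line is equal ratios and the dotted lines are the 2-fold minimum of the rule.

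v1g161288 had the largest Cu ratio of all, 26.8, and an Hg ratio of 96.4. Its control libraries held 3.14, 2.81, 3.93 and 5.26 CPM. It stood at 384, 374 and 337 CPM in the Hg pools and at 61.5, 114 and 128 CPM in the Cu pools. Every Hg pool was thus above every Cu pool, and Cu 1 was the lowest Cu pool. In the Cd pools it had 4.65, 4.52 and 4.87 CPM and in the Zn pools 4, 3.9 and 4.38 CPM, all within the range of the controls. Its fitted log2 fold change was 6.59 ± 0.24 (SE) in Hg and 4.76 ± 0.23 (SE) in Cu.

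v1g214900 followed with a Cu ratio of 22.2 and an Hg ratio of 63.6. Its controls held 1.57, 1.32, 1.25 and 1.81 CPM, close to the minimum level of the rule. The Hg pools held 79.7, 93.1 and 111 CPM and the Cu pools 27.5, 44.2 and 27.2 CPM. Its Cd levels of 2.41, 0.904 and 3.02 CPM fell on both sides of the controls. The Zn levels were 1.6, 1.38 and 2.52 CPM. Each of these rests on few counts, and the Cd and Zn pools overlapped each other.

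v1g239529 took the largest share of counts in Hg pools of the 110 genes. It measured 266, 274, 292 and 285 CPM in controls, a spread of 11.2 CPM (SD, n = 4). The Hg pools had 5375, 6394 and 6833 CPM, and the Cu pools 2826, 3668 and 3492 CPM. The ratio to control was 22.2 in Hg and 11.9 in Cu, and the 3 groups did not overlap. In Cd pools it had 277, 280 and 305 CPM and in Zn pools 277, 259 and 268 CPM, where 1 Cd library lay above and 1 Zn library below the range of the controls.

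v1g234533 had the largest Hg ratio, 97.8, and the largest Hg/Cu ratio, 13.1. Its controls had 4.97, 5.95, 11.4 and 11.6 CPM. Its Hg pools had 1401, 770 and 321 CPM, which differ 4.37-fold from the highest to the lowest. The Cu pools had 40.3, 88.1 and 61.3 CPM, so all Hg pools lay above all Cu pools in spite of that spread. It was also the one gene of the 110 in which every Cd library (5.3, 5.58 and 5.79 CPM) lay below every Zn library (9.12, 9.8 and 8.1 CPM). Over all tested genes 2.99% had that order.

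Of the other genes in this group, v1g180397 had a control mean of 1.7 ± 0.87 CPM (SD, n = 4), an Hg mean of 132 ± 16 CPM and a Cu mean of 33.1 ± 11 CPM (SD, n = 3 each). For v1g244281 these means were 4.68 ± 0.86, 299 ± 40 and 68.6 ± 20 CPM. For v1g161291 they were 11.6 ± 4.2, 361 ± 9.3 and 147 ± 25 CPM. Whether near-identical copies share reads with any of these genes was not examined, as no sequence was at hand. The Hg level was the highest and the Cu level the next in each of the 3 genes. The control, Hg and Cu means of v1g246755 were 3.2 ± 0.54, 60.9 ± 8.8 and 25.4 ± 9.2 CPM. Those of v1g42493 were 6.57 ± 0.69, 186 ± 53 and 50.9 ± 3.8 CPM. In all 9 genes every Hg pool lay above every Cu pool, as in 87 of the 110 genes and 17.9% of all tested genes. Their Cd ratios to control ran from 0.654 to 1.42 and their Zn ratios from 0.844 to 1.23.

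**Figure D4:**
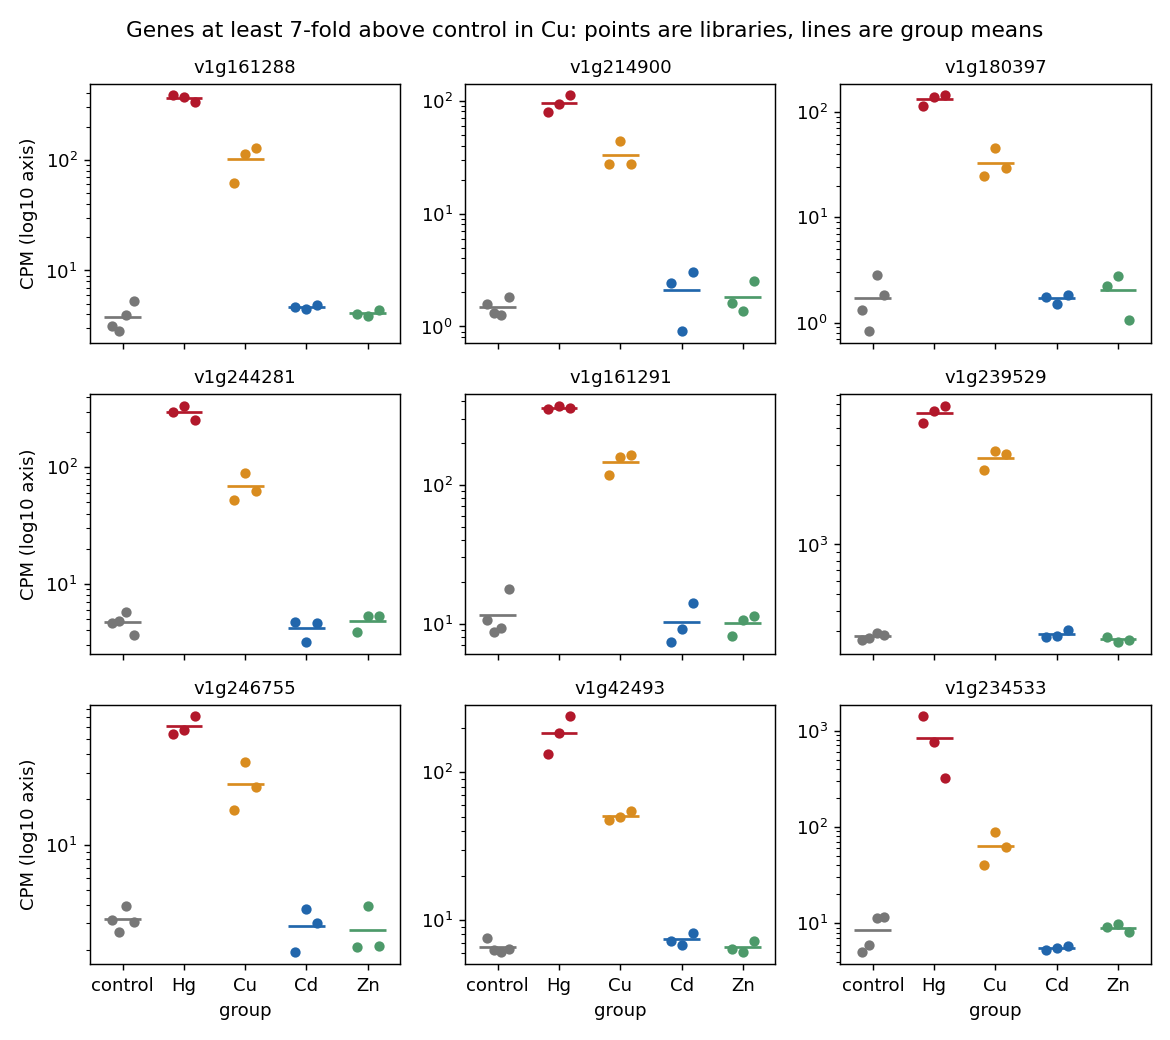
CPM on log10 axes in each library for the 9 genes with the largest Cu/control ratios, where points are libraries and lines are group means. In each panel the Hg points lie above the Cu points and the Cd and Zn points lie near the controls, and v1g234533 shows the widest Hg spread, from 321 to 1401 CPM.

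By the deposited levels over all 16 libraries, the pattern most like that of v1g161288 was that of v1g110765, with a Pearson correlation of 0.996 of log2(CPM + 0.5), and next that of v1g239529 with 0.993. All 110 genes were chosen to be high in the same 6 libraries, so these values describe likeness within the set only. v1g110765 had a smaller amplitude, with 27.1, 32.6, 28.6 and 32.8 CPM in controls, 193, 181 and 206 CPM in Hg pools and 97.4, 118 and 116 CPM in Cu pools. Its ratios were 6.39 in Hg and 3.65 in Cu.

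The genes with the largest shares of counts in controls were v1g217764 and v1g101975, and both had small ratios. The next, v1g239529, had nearly the same control mean, 279 CPM, and large ratios, 22.2 in Hg and 11.9 in Cu. v1g217764 had 266, 299, 290 and 282 CPM in controls. It had 741, 851 and 1033 CPM in Hg pools and 558, 667 and 638 CPM in Cu pools. Its ratios of 3.08 in Hg and 2.18 in Cu were below the medians of the set. v1g101975 had 238, 284, 317 and 295 CPM in controls, 1050, 1018 and 1209 CPM in Hg and 513, 650 and 614 CPM in Cu. Its Zn pools, at 197, 211 and 230 CPM, all lay below its controls, and its Cd pools had 215, 250 and 241 CPM.

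How far Hg exceeded Cu varied between the genes. The Hg/Cu ratio, which the rule holds at 1 or above, was under 2 for 51 genes, 2 to under 3 for 39 and at least 3 for 20. Its median was 2.03. In 87 of the 110 genes every Hg pool lay above every Cu pool, an order found in 17.9% of all tested genes, with the opposite order in 12.8%. Set against Cu, 81 of the 110 were called higher in Hg by edgeR, where 9.87% of all tested genes were called higher and 4.37% lower. The unadjusted p was under 0.05 in edgeR for 91 of the 110 and for 27% of all tested genes. These values follow in part from the rule.

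Next to v1g234533 the largest Hg/Cu ratio was that of v1g160645, 5.96. It had 2.36, 1.16, 2.14 and 3.81 CPM in controls, 81.2, 42.2 and 23.3 CPM in Hg pools and 5.98, 10.2 and 8.47 CPM in Cu pools. Its Hg pools stood in the same order as those of v1g234533, Hg 1 highest and Hg 3 lowest. At the other end were v1g92405 with a ratio of 1.01 and v1g152988 with 1.05. v1g92405 had 25.5, 12.6 and 17.4 CPM in Hg pools and 16.1, 16.5 and 22.4 CPM in Cu pools, so that these groups overlapped. Its controls had 3.4, 3.14, 7.33 and 3.81 CPM, with control 3 apart from the rest.

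v1g152988 lay just inside both 2-fold limits, with ratios of 2.12 in Hg and 2.02 in Cu. It had 1.57, 0.991, 1.07 and 2.18 CPM in controls, 3.09, 2.92 and 3.2 CPM in Hg pools and 2.39, 3.33 and 3.06 CPM in Cu pools. Such levels rest on few counts per library. The other gene just inside the Hg limit was v1g218298, with ratios of 2.28 in Hg and 2.12 in Cu. Its ratio to control was 2.14 in Cd, about that in Cu, and 1.53 in Zn. The other gene just inside the Cu limit was v1g99940, with 2.02 in Cu and 7.94 in Hg.

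Just outside the Cu limit stood v1g199243 and v1g241280, each with a Cu ratio of 1.998. v1g199243 had an Hg ratio of 2.59 and v1g241280 one of 3.11. No gene could miss the rule by the Hg limit alone. An Hg mean at or above a Cu mean of at least 2 times control always meets that limit. Genes that met every criterion but the Cu limit numbered 315. A further 10 genes missed only the criterion that Hg is at or above Cu. Among those 10 the largest excess of Cu was in v1g245153, chosen after its values were seen, with 1685, 1647 and 1813 CPM in Cu pools and 1069, 1178 and 832 CPM in Hg pools. A last 10 genes missed only the criterion on Cd and Zn.

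The median coefficient of variation between pools was 19.3% in controls, 14.3% in Hg, 17.8% in Cu, 15.7% in Cd and 16.6% in Zn. Over the genes with a control mean of at least 1 CPM the medians were 17.4%, 15%, 14.2%, 14.8% and 13.5%. Among the Cu pools 64 of the 110 genes were highest in Cu 2 and 57 were lowest in Cu 1. The median deviation of log2(CPM + 0.5) from the Cu mean was 0.14 in Cu 2, -0.13 in Cu 1 and -0.01 in Cu 3, where all genes above the control minimum had 0.051, 0.005 and -0.049. In Hg pools the highest pool was Hg 1 for 47 genes, Hg 2 for 26 and Hg 3 for 37.

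In 9 of the 95 genes with an Hg mean of at least 10 CPM the highest Hg pool held at least 2 times the lowest. Without the limit on the Hg mean, 10.9% of the 110 genes had such a spread in Hg. Over the genes with a control mean of at least 1 CPM it was 15.2%. The rule used the Hg levels, so these shares do not show whether the 110 vary more or less. The 2 shares were 8.18% and 13.05% in Cu, 20% and 13.97% in Cd, 17.27% and 11.85% in Zn, and 22.73% and 21.47% in controls. Hg 1 was the highest pool in 7 of the 9 genes with that spread and an Hg mean of at least 10 CPM. Beside v1g234533 and v1g160645 they were v1g237112 (22.8, 6.87 and 11.2 CPM in Hg pools 1 to 3), v1g160028, v1g240563, v1g238642, v1g206044, v1g221811 and v1g92405. v1g238642 had 478, 268 and 211 CPM in Hg pools 1 to 3. In v1g240563 the highest Hg pool had 54.6 CPM and the lowest 22.6 CPM, and its highest Cu pool was Cu 1 with 31.8 CPM against 15.3 CPM in Cu 3. These genes were picked for their spread, and no batch or day is given with which it could be compared.

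Over the 110 genes the median ratio to control was 1.05 in Cd and 0.995 in Zn, where the genes above the control minimum had 1.01 and 0.976. In 43 genes the Cd mean was below the control mean and in 57 the Zn mean was. The fitted log2 fold change was above 0 for 60% of the 110 in Cd and 50.9% in Zn. Of all tested genes 49.8% and 48.8% were above 0. In 45 genes none of the 6 Cd and Zn libraries lay above all controls and in 30 genes 1 did, while in 6 genes 5 of the 6 did. For these counts of libraries no share over all tested genes was computed, so they do not show whether the 110 are unusual. By edgeR 0 of the 110 genes were called in Cd against control, where 0.0184% of all tested genes were called higher and 0% lower. An unadjusted p under 0.05 was found for 14 of the 110 and for 7.03% of all tested genes. In Zn against control 0 were called, where 0.00614% of all tested genes were called higher and 0% lower, and 9 of the 110 had an unadjusted p under 0.05 beside 7.03% of all tested genes. DESeq2 called 0 in both. The rule kept out genes with all 6 of these libraries above all controls, so these counts are a description.

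Some of the 110 genes lay further from control. The Cd ratio was at least 2 for 4 of them, v1g218298, v1g221057, v1g237112 and v1g80243, whose control means were only 1.353 to 2.715 CPM. The Zn ratio was at least 1.5 for 5. For these counts no share over all genes was computed, so they do not show whether the 110 are unusual. The highest levels of Cd and Zn together relative to control were in v1g80243 and v1g237112. v1g80243 had 2.36, 1.65, 2.5 and 4.35 CPM in controls, 6.42, 7.08 and 7.1 CPM in Cd pools and 8.32, 2.14 and 4.65 CPM in Zn pools. All its Cd pools were above all controls, as in 4 other genes (v1g212994, v1g232587, v1g55150 and v1g87416), an order found in 3.97% of all tested genes. v1g237112 had 1.31, 2.97, 2.32 and 2.18 CPM in controls, 5.78, 9.95 and 2.76 CPM in Cd pools and 2.88, 2.64 and 3.32 CPM in Zn pools. All Zn pools were above all controls in v1g127893 and v1g80458, an order found in 2.69% of all tested genes.

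The lowest were v1g136943 and v1g241139. v1g136943 had 0.916, 0.991, 1.25 and 1.45 CPM in controls, 0.161, 0.754 and 0.658 CPM in Cd pools and 0.64, 1.26 and 0.399 CPM in Zn pools. In the same gene the Hg pools had 11.8, 6.28 and 4.31 CPM and the Cu pools 2.91, 4.39 and 4.72 CPM. v1g241139 had 1.05, 1.65, 1.61 and 0.544 CPM in controls, 0.161, 0.452 and 1.05 CPM in Cd pools and 0.48, 1.01 and 0.93 CPM in Zn pools. Its Cd and Zn pools overlapped the controls, and a level of 0.161 CPM is 1 count. All Cd pools were below all controls in v1g136943, v1g224558 and v1g242463, an order found in 1.7% of all tested genes. All Zn pools were below all controls in v1g101975 and v1g238642, an order found in 3.08%.

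**Figure D5:**
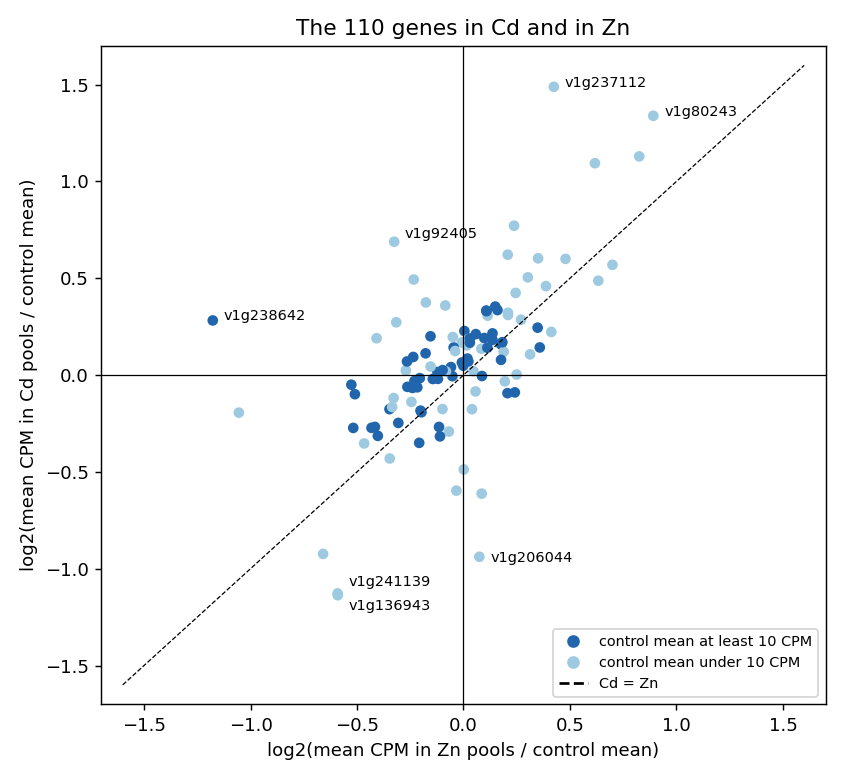
Log2 ratio of the mean CPM in Cd pools to the control mean against that in Zn pools, with 1 point per gene and dark points for genes with a control mean of at least 10 CPM. Most points lie near 0 on both axes, and v1g238642 stands apart with Zn ratio 0.442 and Cd ratio 1.22.

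Whether the 110 genes differed between Cd and Zn was tested, since the rule did not set one of these metals against the other. By edgeR 0 of the 110 genes were called, as were 0% of all tested genes, and DESeq2 called 0 of them. The unadjusted p was under 0.05 for 5 of the 110 (v1g130653, v1g237112, v1g238642, v1g241972 and v1g92405) and for 3.68% of all tested genes. All 5 had higher values in Cd, with an edgeR adjusted p of 1. The fitted log2 fold change was above 0, higher in Cd, for 74 of the 110 genes (67.3%), with a median of 0.09. Over all tested genes these were 51.3% and 0.006. By mean CPM, Cd was above Zn in 71.8% of the 110. Over the 16424 genes with a control mean of at least 1 CPM and counts in Hg and Cu it was 60.7%. Cd 1 was the lowest Cd pool for 67 of the 110. Whether these shares differ was not tested. All Cd pools lay above all Zn pools in 10 of the 110, where 6.78% of all tested genes had that order.

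The largest fitted differences between Cd and Zn were in v1g238642 and v1g206044. v1g238642 had 39.6, 67.4, 41.8 and 49.5 CPM in controls, 45.3, 116 and 19.3 CPM in Cd pools and 21.8, 22.3 and 21.8 CPM in Zn pools. The Zn pools were alike and all below the controls, while the Cd pools lay on both sides of both. The fitted log2 fold change of Cd against Zn, 1.40 ± 0.54 (SE), had an adjusted p of 1 in edgeR. v1g206044 had a log2 fold change of -1.11 ± 0.62 (SE), adjusted p = 1 in edgeR, from 0.802, 0.904 and 0.263 CPM in Cd pools and 0.48, 1.63 and 1.86 CPM in Zn pools. These groups overlapped, and the missed threshold does not show that the metals acted alike on either gene.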

How the data were processed

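RNA from whole anemones was sequenced after TruSeq mRNA library preparation, per the labels' protocols. Per the submitters' processing notes, STAR, Partek and DESeq were used, in roles that are not stated. For genome build, strand and counting rule, nothing is given in the sources used here. Raw counts were deposited by the authors in 4 tables, per gene model for the 4 controls and the 3 pools of a metal, and the control columns were the same in all 4. Adjusted p-values of the authors stand beside them, per the file headers, and are quoted for Hg and Cu. The tables were joined on the identifier, and 0 per-library columns were left unused.

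The rule was applied to counts divided by column totals. Tests used R 4.3.3 and edgeR 4.0.16: default filterByExpr, TMM factors, a robust quasi-likelihood fit of all 16 libraries with 1 term per group and no replicate block, Benjamini-Hochberg adjustment over 16276 genes and a threshold of 0.05. DESeq2 1.42.0 was an alternative. The standard error is the log2 fold change divided by the square root of F. The fit was tested on simulated counts. Replicates are pools the labels call separate groups. The p-values weigh a difference between groups against the spread between pools, estimated over all 16 libraries with information shared across genes. Precision at 1 CPM is limited by 5.49 to 8.11 counts per library.

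The 110 genes, the lists and the tests were chosen with earlier results of these data known. Named genes are at most 2 for each of a fixed set of orderings (ratios, levels, nearness to a limit, likeness to the gene with the largest Cu ratio), and others named were chosen after their values were seen. The set of 126 pool-variable genes was defined on deviations from group means. Its genes correlate (r above 0.8) with the top-loading gene of the first component and have an SD over 0.5. No sequence could be matched to the identifiers, so none is printed. Deviations of same-numbered pools were correlated for each pair of groups, over 3 pairs. The correlations ran from -0.17 to -0.03 for control with Hg, from 0.088 to 0.256 for Cu with Zn and from 0.08 to 0.37 for Hg with Zn. In no pair of groups were all 3 above 0.1, the limit set for pairing, so the numbers were not taken to pair the pools. Pools of different number reached at most 0.047 for Cu with Zn, below every same-number value, and at most 0.106 for Hg with Zn. Whether pools of the same number shared an effect in these metals was not tested. A fit with a replicate block is given as an alternative below.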

Additional observations from a re-analysis of the deposited data

Results flagged for a closer look

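Control values were examined in 21 sets, and in 1 of them a single library was distant from its group. v1g92405 had 7.33 CPM in control 3 and 3.14 to 3.81 CPM in the other controls. A library was called distant where its gap to the nearest of the others, divided by the range of the group, was above Dixon's critical value, which chance passes in about 1 in 20 sets. Without control 3 its fitted log2 fold change in Cu was 2.42, against 2.07 with all controls.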

How the results depend on the processing

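The number of genes meeting the rule was 301 with a limit of 1.5-fold and 33 with a limit of 3-fold. It was 109 with TMM-scaled library sizes (106 of them among the 110), 111 with DESeq2 size factors, 76 with a control minimum of 5 CPM, 131 with none and 120 without the criterion on Cd and Zn. Leaving out 1 library gave 100 to 130 genes, 100 without control 1 and 130 without control 2. Membership changed more than the number: 92 of the 110 remained without control 1, 102 without control 2 and 92 without Cu 2. Without the 6 libraries high in the set of 126 genes, a setting chosen after seeing the data, 107 genes met the rule and 80 of these were among the 110.

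Calls among the 110 over leave-one-out fits numbered 108 to 109 in Hg against control, 84 to 91 in Cu against control, 74 to 79 in Hg against Cu, and 0 in Cd against control, Zn against control and Cd against Zn. The replicate block gave 108, 91 and 81 for the first 3 and 0 for the rest. DESeq2 gave 109, 103 and 82, and without the 6 libraries the counts were 103, 75 and 71. No direction changed under the settings run, for the 20 genes refitted in Hg and Cu and the 2 refitted in Cd against Zn. Those 20 include v1g199243 and v1g241280, which lay just outside the Cu limit and are not among the 110. Over the 20 genes, calls were lost in 12 of the alternative values in Cu and 6 in Hg, and gained in 5 in Cu. The median deviation in Cu 2 was 0.119 with a pseudocount of 2. Genes near 1 CPM rest on few counts per library, which limits statements on their Cd and Zn levels.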
